A study of Mus musculus with 6 samples.

Results

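Transcripts of 50 mouse genes of the mitotic spindle, the kinetochore and cytokinesis were measured by RNA-seq in cultured embryonic cortical cells with and without knockdown of Ybx1, which encodes an RNA-binding protein. The genes were taken by symbol from the deposited table, where all 50 were found among 17920 genes listed, and all 50 were among the 13669 genes that passed the filter on low counts. By the known role of the protein they were placed in 9 groups. These are 9 kinases, cyclins and regulators of mitotic entry, 2 factors of the anaphase-promoting complex (APC/C), 10 kinetochore and checkpoint genes, 4 genes of the chromosomal passenger complex, 8 kinesins, 7 spindle-associated proteins, 3 cytokinesis genes, 5 condensin subunits, and the pair of Mki67 and Top2a.

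A cell enters mitosis when Cdk1, bound to an A- or B-type cyclin, is switched on by Cdc25 phosphatases, and it leaves mitosis when the APC/C marks the cyclins for destruction. In between, condensin compacts the chromosomes, kinesins and other microtubule proteins build the spindle, and the kinetochore joins each chromosome to it while the checkpoint delays anaphase until all are attached. Radial glia and intermediate progenitors are the dividing cells of the embryonic cortex, and transcripts of these genes accumulate in G2 and mitosis and are low in neurons, which no longer divide.

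The series profiled RNA expression of mouse cortex cells in 6 libraries, 3 from controls (WT) and 3 from Ybx1 knockdown (KD), from the stage labelled E13.5, an embryonic day. The labels give the tissue as brain and WT or KD as genotype, and the series text calls the change a deletion. By the study's methods, cortical cells were put in culture and infected with a lentivirus for a short hairpin (shRNA) that targets Ybx1 or for a control hairpin, and both groups then received puromycin, which kills cells without the virus. WT therefore stands for infected, puromycin-treated control cells. The mouse strain is not given for these libraries, and the labels do not say whether the cultures of a group were separate. The study describes independent replicate experiments, and the P values measure only the spread between these libraries. In such bulk RNA, fewer cells of a type and less RNA per cell cannot be told apart.

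Ybx1 itself (Entrez Gene 22608) was at 618, 615 and 653 CPM in WT 1, 2 and 3 and 98.3, 92.2 and 159 CPM in KD 1, 2 and 3 (CPM, counts per 1000000 after normalisation), so KD 1, 2 and 3 held 15.6%, 14.7% and 25.3% of the WT mean. Library totals lay between 16294635 and 16497505 estimated counts. Libraries with the same replicate number deviated together from their group means, so a second fit that blocks on this number is given where it changes a call. The labels do not say that same-numbered libraries were handled together, so this pairing is inferred. Counts that RSEM divided between genes sharing sequence are less certain, and such fractional values were present for Ccna2, Kif20a and Ncapg in all 6 libraries, for Spc24 and Prc1 in 5 and for Kif11 in 1.

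Every one of the 50 genes had a higher fitted level in KD than in WT, and 20 of the differences passed the test. The log2 fold change of KD over WT ran from 0.083 for Incenp to 0.73 for Hmmr, with a median of 0.41, against a median of -0.0013 over all genes tested. At an adjusted P under 0.05 (edgeR quasi-likelihood test, Benjamini-Hochberg over all genes tested), 20 of 50 rose, where 12% of all genes tested did. None fell, against 11.9% of all genes. The number lower in KD was 0 also at an unadjusted p under 0.05 (19.0% of all genes) and by DESeq2 (1373 of the 13669 genes). At an unadjusted p under 0.05, 36 of 50 were higher, and so were 19.0% of all genes. DESeq2 called 26 of 50 higher (10.3% of all genes), the 20 and Cenpe, Cenpf, Kif20a, Tpx2, Prc1 and Racgap1. The fit with the replicate block called 42 of 50 higher, against 18.6% of all genes, and all 20 were among them. In what follows, called with the block and not without it refers to these edgeR fits on all 6 libraries. The genes not called in either fit were Cks2, Aurka, Plk1, Ttk, Spc24, Incenp, Kif20b and Ckap2.

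**Figure D1:**
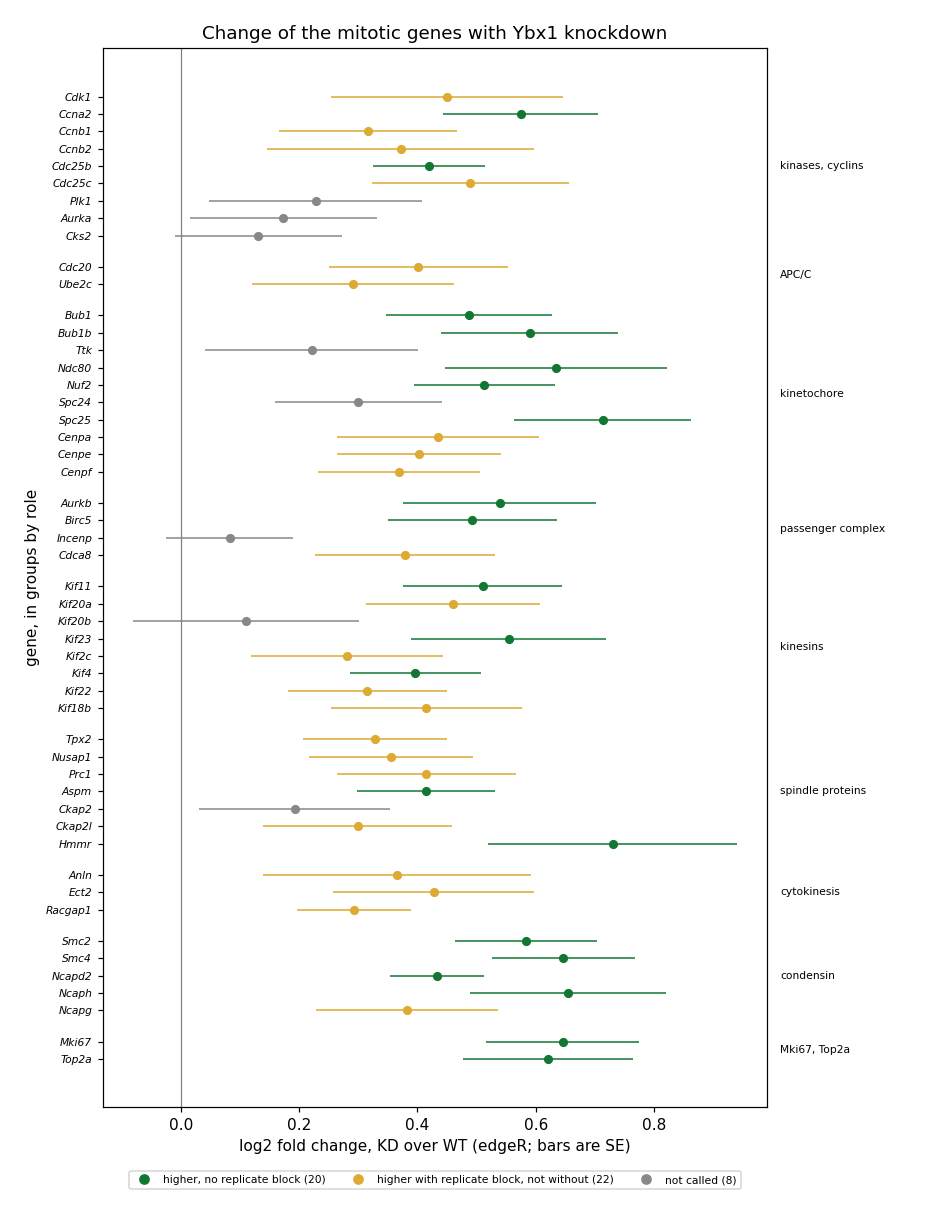
Log2 fold change of KD over WT for each of the 50 genes (x axis, edgeR, bars are the SE, n = 3 libraries per group), in groups by role. Green points are the 20 genes called higher without the replicate block, yellow points the 22 called higher with the block and not without it, and grey points the 8 called in neither; every point lies above 0.

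These counts moved with single libraries. Without WT 2 the number called was 7 (5.65% of all genes tested), without WT 3 it was 11 (11.7%), without KD 1 it was 10 (7.96%) and without KD 2 it was 13 (6.40%). It was 19 without WT 1 (8.35%) and 23 without KD 3 (9.40%). The genes called in all 6 of these fits were Ccna2, Cdc25b, Spc25, Smc2, Smc4, Ncapd2 and Mki67, which is 7 of 50 against 5.01% of all genes tested. Without KD 1 the median log2 fold change of the 50 was 0.24.

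**Figure D2:**
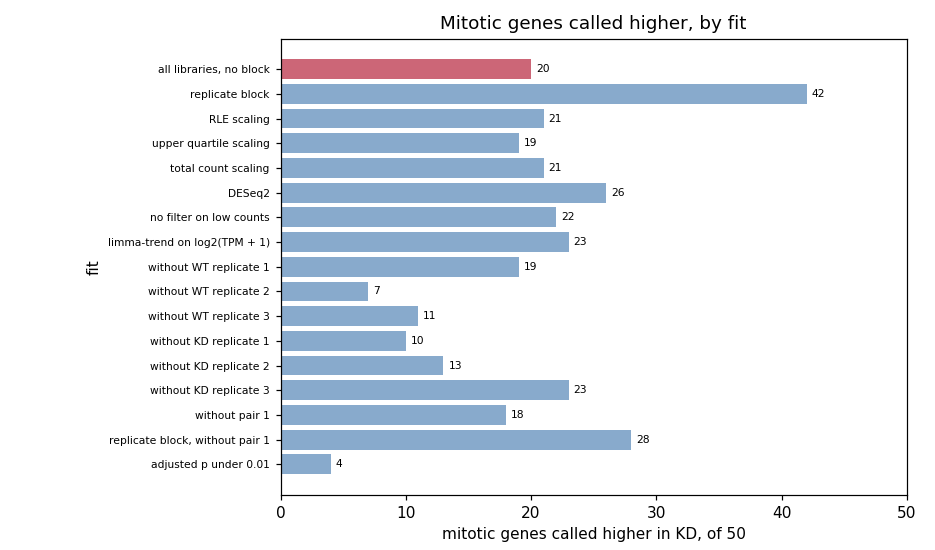
Number of the 50 genes called higher in KD (x axis) in each fit. The bar in red is the edgeR fit on all libraries without the replicate block (20 genes, 12% of all genes tested). The others range from 4 at an adjusted P under 0.01 (629 of the 13669 genes tested) to 42 with the replicate block (18.6% of all genes tested).

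The sum of the 50 transcripts, in deposited TPM (a scale that divides by transcript length and gives each library the same sum), was 922, 815 and 746 TPM in WT 1, 2 and 3 and 1399, 1045 and 993 TPM in KD 1, 2 and 3. All KD sums lay above all WT sums, and the ratio of the means was 1.38. KD 1 and WT 1 were the highest library of their groups. Taken gene by gene, every KD library was above every WT library for 29 of 50 genes, where this held for 21.0% of all genes tested, and the reverse held for 0 of 50 (20.6% of all genes).

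KD 1 stood apart from the other libraries in these genes. It was the highest of the 6 libraries for 49 of 50 genes, against 21.0% of all genes tested, and the exception was Cdc25b, which was highest in KD 3. Among the WT libraries WT 1 was highest for 44 of 50 (32.8% of all genes) and WT 3 was the lowest of all 6 libraries for 40 of 50 (16.4% of all genes). The median of WT 1 minus WT 3 over the 50 genes was 0.33 on the log2 CPM scale, against 0.0027 over all genes tested. For 20 of the 50 this difference within the controls was larger than their log2 fold change. Relative to the WT mean, the median gene was at 0.70 in KD 1, 0.30 in KD 2 and 0.23 in KD 3 (log2 CPM).

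**Figure D3:**
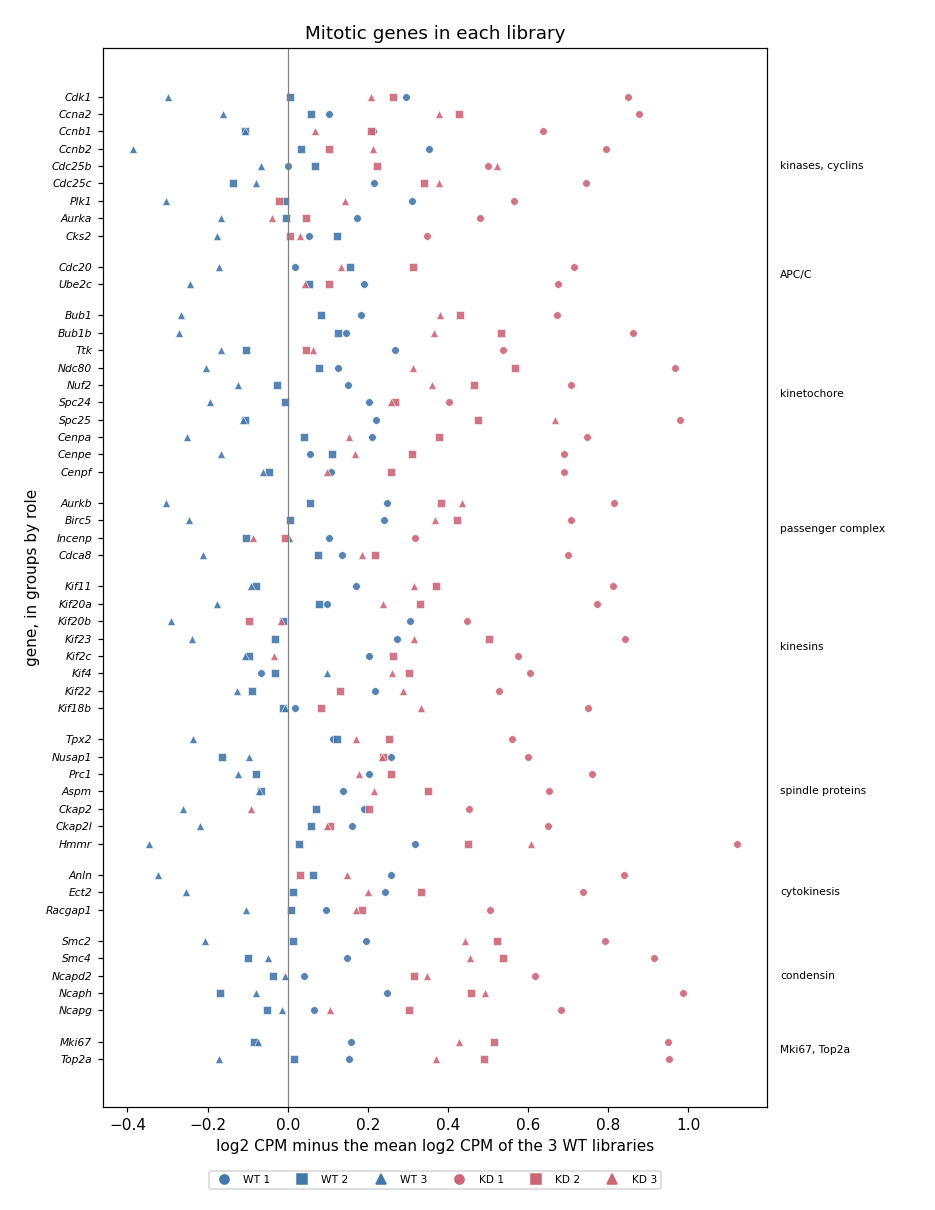
Level of each of the 50 genes in each library (x axis, log2 CPM minus the mean log2 CPM of the 3 WT libraries), in groups by role. Blue symbols are WT and red symbols KD, with circles, squares and triangles for replicates 1, 2 and 3; KD 1 is the rightmost symbol for 49 genes and WT 3 the leftmost for 40.

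Within same-numbered pairs, KD was above WT for 50 genes in pair 1, 46 in pair 2 and 49 in pair 3. Of 13655 tested genes above 0 in every library, this held for 6841, 6739 and 6873. For the 50 genes the median difference was 0.55, 0.32 and 0.41 on the log2 CPM scale in pairs 1, 2 and 3. In all 3 pairs together, 45 of 50 genes were higher in KD, against 31.0% of all genes tested. The exceptions were Plk1, Cks2, Kif20b and Anln, which were lower in KD 2 than in WT 2, and Incenp, which was lower in KD 3 than in WT 3. Pair 1 held the largest of the 3 differences for 37 genes (32.5% of all genes tested), pair 3 for 12 (36.6%) and pair 2 for 1 (30.9%). With pair 1 left out, 18 of 50 genes rose (7.49% of all genes tested), of which 16 were among the 20. With the replicate block and without pair 1 the number was 28 (12.4% of all genes tested). That last fit estimates a replicate effect from few libraries, which leaves little to measure their spread, so its calls are less certain.

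**Figure D4:**
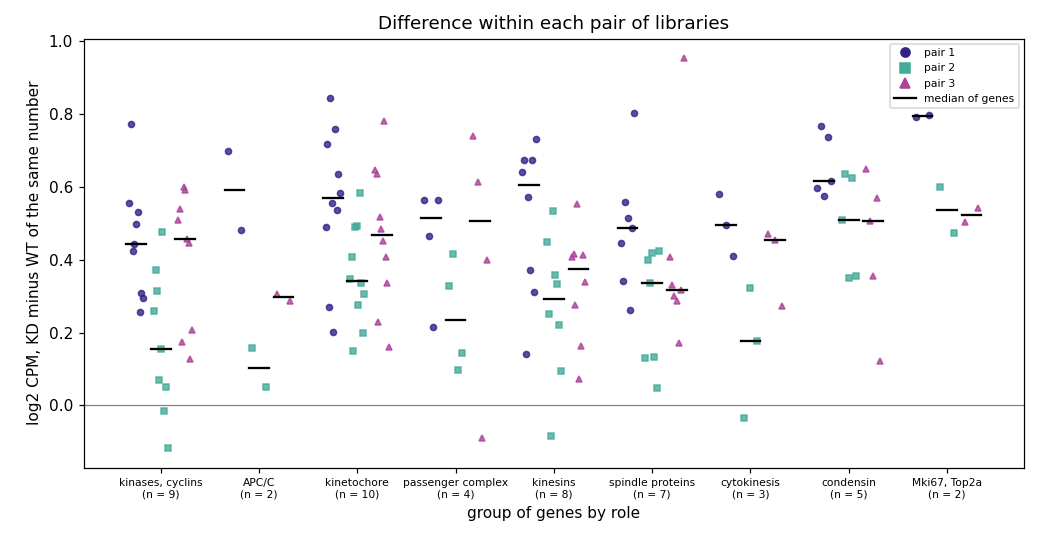
Difference between KD and WT within each pair of same-numbered libraries (y axis, log2 CPM), by group of genes. Each symbol is 1 gene and each black line the median of the group in that pair; medians are above 0 in every group and pair, and 5 single values lie below 0.

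Cell types in the cultures were checked by marker lists, since dividing cells are part of the cortex. The counts called in these lists stand beside 12% of all genes tested that rose and 11.9% that fell. Radial glia markers summed to 1396 to 1540 CPM in WT and 1480 to 1686 CPM in KD. Of these 2 of 9 rose (22.2%), Pax6 by 0.61 ± 0.15 and Hes1 by 0.49 ± 0.15 on the log2 scale. WT 1 had the lowest sum of the controls and KD 1 the highest of the KD libraries, and the same held for the intermediate progenitor markers. The latter summed to 61.4 to 74.7 CPM in WT and 129.8 to 163 CPM in KD. Of these 5 genes 4 passed the filter, and all 4 rose, with log2 fold changes of 1.57 ± 0.31 for Eomes, 1.58 ± 0.18 for Neurog2, 1.42 ± 0.15 for Insm1 and 0.31 ± 0.10 for Btg2. Neuron markers summed to 7616 to 8278 CPM in WT and 7225 to 8201 CPM in KD. Of 12 genes Dcx and Neurod2 rose (16.7%, near the 12% of all genes) while Stmn2, Syt1 and Gap43 fell. The sum of the neuron markers was lowest in WT 1 within WT and in KD 1 within KD, the libraries in which the mitotic genes were highest.

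Markers of other cells were present too, and the same shares of all genes (12% higher, 11.9% lower) stand beside their counts. Interneuron markers summed to 644 to 984 CPM in WT and 672 to 1010 CPM in KD, and the sums were highest in WT 1 and KD 1. Of these 1 of 6 rose, Dlx2 (16.7%, near the 12% of all genes). Oligodendrocyte lineage markers summed to 365 to 508 and 314 to 411 CPM, with Olig1 and Cspg4 of 5 lower, and were likewise lowest in WT 1 and KD 1. Microglia, meninges and erythroid markers stayed at or under 5.54 CPM in sum in every library, with 4 of their 17 genes above the filter, and Hbb-bt was listed at 0 in all. Endothelial and mural markers reached 12.7 CPM in sum. Of these 7 genes 3 passed the filter, and 1 of the 3, Pdgfrb, rose. The part of these cell types in the values of the 50 genes was not tested.

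The sequences in front of the start sites of the 50 genes were read for letters known from promoters of G2/M genes. The 50 were chosen as genes of mitosis, so a share above that of all genes does not bear on the knockdown. A link between these letters and the knockdown was not tested. The windows are from RefSeq (build GRCm38.p6), 300 bases each, from 250 before to 50 after the start, and 42 of the 50 genes matched by Entrez Gene number. No window was matched for Ccna2, Cdc25c, Spc24, Aurkb, Incenp, Kif20a, Tpx2 and Smc4. The first word searched was CCAAT, which reads ATTGG on the other strand. It is the box bound by NF-Y and, inverted, the Y-box after which Ybx1 is named. The study located Ybx1 protein mainly in the cytoplasm of cultured progenitor cells, and binding of Ybx1 to these promoters was not tested here. The second was TTTGAA, which reads TTCAAA on the other strand and is the cell cycle genes homology region (CHR) bound by MuvB complexes. TTCGAA, a variant that is its own reverse complement, was searched as well.

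CCAAT was present in 34 of 42 windows (81.0%), against 43.4% of 10899 tested genes with a window and 37.4% of all 32851 windows. TTTGAA was present in 33 of 42 (78.6%), against 14.1% and 17.9%, and both words stood together in 29 of 42 (69.0%), against 5.86% and 6.95%. At least 2 copies of CCAAT were found in 23 of 42 (54.8%), against 16.6% and 11.7%. TTCGAA was found in 4 of 42 (9.52%), against 2.44% and 1.56%. Within 50 bases of the start, TTTGAA was present in 29 of 42 (69.0%) and in 2.85% of tested genes. Among genes called higher CCAAT was in 13 of 17 windows and TTTGAA in 12 of 17, and among the others each was in 21 of 25. A match is a description of letters and not a site.

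The windows of 6 genes are shown up to base 30 after the start, 5′ to 3′ along the gene, with the 3 words in either orientation in capitals. They are those of Mki67 and Top2a, of Ncapd2 and Spc25, which rose in every fit without 1 library, of Nuf2, which rose and holds none of the words, and of Ube2c, which had the highest TPM of the 50 and was called with the block and not without it. The windows span chr7:135716350-135716629, minus strand for Mki67, chr11:99024160-99024439, minus strand for Top2a, chr6:125191557-125191836, minus strand for Ncapd2, chr2:69206184-69206463, minus strand for Spc25, chr1:169531435-169531714, minus strand for Nuf2 and chr2:164769679-164769958, plus strand for Ube2c.
Mki67: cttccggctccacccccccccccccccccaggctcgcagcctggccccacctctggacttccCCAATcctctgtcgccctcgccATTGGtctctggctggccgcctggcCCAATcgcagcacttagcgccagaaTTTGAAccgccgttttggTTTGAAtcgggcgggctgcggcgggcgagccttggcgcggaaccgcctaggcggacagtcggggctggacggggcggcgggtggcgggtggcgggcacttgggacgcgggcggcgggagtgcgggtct
Top2a: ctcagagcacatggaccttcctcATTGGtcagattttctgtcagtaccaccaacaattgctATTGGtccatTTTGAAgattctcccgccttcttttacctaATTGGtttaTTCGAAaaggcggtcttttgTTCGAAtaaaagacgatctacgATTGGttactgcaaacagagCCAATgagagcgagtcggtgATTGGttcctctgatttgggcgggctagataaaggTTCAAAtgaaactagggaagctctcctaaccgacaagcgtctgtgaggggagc
Ncapd2: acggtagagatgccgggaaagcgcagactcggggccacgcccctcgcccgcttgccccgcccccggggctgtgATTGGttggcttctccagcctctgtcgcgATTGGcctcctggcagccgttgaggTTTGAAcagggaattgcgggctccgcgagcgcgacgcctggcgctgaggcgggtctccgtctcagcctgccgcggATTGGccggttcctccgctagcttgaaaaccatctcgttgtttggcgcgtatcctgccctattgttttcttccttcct
Spc25: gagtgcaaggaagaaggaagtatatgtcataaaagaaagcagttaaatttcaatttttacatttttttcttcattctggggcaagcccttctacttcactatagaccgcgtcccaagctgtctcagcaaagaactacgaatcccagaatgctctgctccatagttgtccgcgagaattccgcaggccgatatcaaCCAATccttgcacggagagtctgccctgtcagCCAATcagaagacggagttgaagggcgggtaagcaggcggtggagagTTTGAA
Nuf2: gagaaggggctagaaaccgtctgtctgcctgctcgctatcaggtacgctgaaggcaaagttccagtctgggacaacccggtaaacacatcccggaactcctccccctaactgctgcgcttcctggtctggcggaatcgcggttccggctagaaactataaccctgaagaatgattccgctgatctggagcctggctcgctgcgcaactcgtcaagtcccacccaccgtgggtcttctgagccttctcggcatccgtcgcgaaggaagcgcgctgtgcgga
Ube2c: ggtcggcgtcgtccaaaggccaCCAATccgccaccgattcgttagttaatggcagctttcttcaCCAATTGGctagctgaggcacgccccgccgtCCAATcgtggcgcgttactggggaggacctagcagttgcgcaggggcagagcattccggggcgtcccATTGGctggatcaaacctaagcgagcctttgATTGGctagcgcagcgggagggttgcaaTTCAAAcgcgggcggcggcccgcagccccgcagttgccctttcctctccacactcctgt

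Mki67 holds 3 copies of CCAAT and 2 of TTTGAA, and Top2a holds 6 of CCAAT, 2 of TTTGAA and 2 of TTCGAA. In Ube2c there are 6 copies of CCAAT, counting 1 overlapping pair on opposite strands, and 1 of TTTGAA. Ncapd2 has 3 and 1, and Spc25 has 2 and 1, with TTTGAA lying after the start.

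Cyclins, kinases and their partners at mitotic entry came to a summed level of 178, 160.2 and 142 TPM in WT 1, 2 and 3 and 254, 188 and 186 TPM in KD 1, 2 and 3. Of the 9 genes 2 rose, Ccna2 and Cdc25b, and 6 were called with the block. The shares over all genes tested were 12% and 18.6%. The median log2 fold change was 0.37, and 0.13 without KD 1. Ccna2 (Entrez Gene 12428), cyclin A2, the partner of Cdk1 and Cdk2 in S and G2 phase, was at 46.4, 44.9 and 38.6 CPM in WT 1, 2 and 3 and 79.2, 58.1 and 56.1 CPM in KD 1, 2 and 3. Every KD library was above every WT library. The mean was 43.3 ± 4.13 in WT and 64.5 ± 12.8 CPM in KD (SD, n = 3 each), with a log2 fold change of 0.57 ± 0.13 (SE, as for all that follow) and an adjusted P of 0.015 (edgeR), and the call stood in all 6 fits without 1 library.

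Cdc25b, a phosphatase that activates Cdk1, was at 20.0, 21.0 and 19.1 CPM in WT 1, 2 and 3 and 28.3, 23.4 and 28.8 CPM in KD 1, 2 and 3. The groups did not overlap and KD 3 was the highest library, with a log2 fold change of 0.42 ± 0.095 and an adjusted P of 0.0144 (edgeR). This call was lost without pair 1 (adjusted P = 0.0566). Cks2 (Entrez Gene 66197), a small protein that binds Cdk1, had the highest TPM of the group (40.6, mean of 6 libraries) and was at 7.89, 8.27 and 6.73 CPM in WT 1, 2 and 3 and 9.68, 7.63 and 7.76 CPM in KD 1, 2 and 3. Its groups overlapped, KD 2 and KD 3 lay within the WT range, and the log2 fold change of 0.13 ± 0.14 did not pass the test (adjusted P = 0.536).

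Cdk1 itself, the kinase of mitotic entry, was at 15.2 ± 3.10 in WT and 20.7 ± 5.39 CPM in KD and did not pass without the block (log2 fold change 0.45 ± 0.20, adjusted P = 0.127) but did with it (adjusted P = 0.00111). WT 1 was above KD 2 and KD 3 in Cdk1, as it was in the cyclin genes Ccnb1 and Ccnb2. Ccnb1 and Ccnb2 had log2 fold changes of 0.32 and 0.37, and Cdc25c, a further phosphatase, one of 0.49 with no overlap between groups. These 3 were called with the block and not without it. For the kinases Plk1 and Aurka, which act on centrosomes and the spindle, the log2 fold changes were 0.23 ± 0.18 and 0.17 ± 0.16, and neither fit called them. Without KD 1 the value for Aurka was -0.0034.

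The APC/C factors are Ube2c, the enzyme that supplies ubiquitin to the complex, and Cdc20, its activator. Neither passed the edgeR test, where 12% of all genes tested rose. Of the 2 genes, 1 had an unadjusted p under 0.05 (19.0% of all genes tested). DESeq2 called 0 (10.3%), and the block called both (18.6%). Ube2c (Entrez Gene 68612) had the highest TPM of the 50 genes (104) and was at 33.1, 30.1 and 24.5 CPM in WT 1, 2 and 3 and 46.2, 31.1 and 29.9 CPM in KD 1, 2 and 3. KD 1 stood above the rest, while KD 2 and KD 3 lay inside the WT range. The log2 fold change was 0.29 ± 0.17 with an adjusted P of 0.246, and 0.0121 with the block. Cdc20 had a log2 fold change of 0.40 ± 0.15 with an adjusted P of 0.0861, and 0.00613 with the block.

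Condensin I was the group with the highest share of genes called among those of more than 2. Its 5 subunits are the ATPases Smc2 and Smc4, the kleisin Ncaph that closes the ring, and the repeat proteins Ncapd2 and Ncapg. Of these 4 rose (12% of all genes tested) and all 5 were called with the block (18.6%). The median log2 fold change was 0.58. No subunit had overlapping groups, with KD above WT, as held for 21.0% of all genes tested. The summed level was 92.5, 80.2 and 84.0 TPM in WT 1, 2 and 3 and 150.0, 118 and 113 TPM in KD 1, 2 and 3.

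Ncapd2 (Entrez Gene 68298), the highest of them in TPM (51.0), was at 92.0, 87.2 and 89.1 CPM in WT 1, 2 and 3 and 137, 111 and 114 CPM in KD 1, 2 and 3. The WT libraries were close together and each KD library lay above them. Its log2 fold change was 0.43 ± 0.080 with an adjusted P of 0.00623, the smallest of the 50. Smc4 (Entrez Gene 70099) was at 41.8, 35.2 and 36.4 CPM in WT 1, 2 and 3 and 71.1, 54.7 and 51.6 CPM in KD 1, 2 and 3. KD was above WT in all 3 pairs, with a log2 fold change of 0.65 ± 0.12 and an adjusted P of 0.00659. Smc2 rose by a log2 fold change of 0.58 ± 0.12 (adjusted P = 0.00986). All 3 kept their call in every fit without 1 library and without pair 1.

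Ncaph (Entrez Gene 215387) had the largest log2 fold change of the group, 0.65 ± 0.17, with an adjusted P of 0.0223. It was at 15.0, 11.2 and 12 CPM in WT 1, 2 and 3 and 25.0, 17.3 and 17.8 CPM in KD 1, 2 and 3. KD 1 was far above KD 2 and KD 3, and these were still above WT 1. The call was lost without WT 2 (adjusted P = 0.087), WT 3 (0.0557) or KD 1 (0.0544). Ncapg (Entrez Gene 54392) was at 8.44, 7.78 and 7.97 CPM in WT 1, 2 and 3 and 12.9, 9.95 and 8.67 CPM in KD 1, 2 and 3. KD 3 was only just above WT 1, and the log2 fold change of 0.38 ± 0.15 had an adjusted P of 0.103 without the block and 0.0279 with it.

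Mki67 and Top2a were both called higher in both fits, without the block (12% of all genes tested) and with it (18.6%). Mki67 (Entrez Gene 17345) encodes Ki-67, which coats mitotic chromosomes and is widely used to mark cycling cells. It was at 121, 102 and 103 CPM in WT 1, 2 and 3 and 209, 155 and 146 CPM in KD 1, 2 and 3, and every KD library exceeded every WT library, KD 1 by the most. Its log2 fold change was 0.65 ± 0.13 with an adjusted P of 0.00885, and it was called in all 6 fits without 1 library. Top2a (Entrez Gene 21973), the topoisomerase that untangles sister DNA, was at 92.8, 84.4 and 74.1 CPM in WT 1, 2 and 3 and 161, 117 and 108 CPM in KD 1, 2 and 3. Again the groups did not overlap, and the log2 fold change was 0.62 ± 0.14 with an adjusted P of 0.0158, which became 0.0585 without WT 2.

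Among kinetochore and checkpoint genes 5 of 10 rose (12% of all genes tested) and 8 were called with the block (18.6%). Their median log2 fold change was 0.46. The Ndc80 complex, the microtubule attachment of the kinetochore, accounted for 3 of the 5: Ndc80, Nuf2 and Spc25 rose, and Spc24 did not pass (log2 fold change 0.30 ± 0.14, adjusted P = 0.155, and 0.0974 with the block). Spc25 (Entrez Gene 66442) was at 12.9, 10.3 and 10.3 CPM in WT 1, 2 and 3 and 21.9, 15.4 and 17.6 CPM in KD 1, 2 and 3. Each KD library was above WT 1, with a log2 fold change of 0.71 ± 0.15 and an adjusted P of 0.0106, and the call stood in all 6 fits without 1 library. Nuf2 rose by 0.51 ± 0.12 on the log2 scale (adjusted P = 0.0159, and 0.0605 without WT 2). Ndc80 rose by 0.63 ± 0.19 on the log2 scale (adjusted P = 0.0391), and its call stood only without KD 3, with adjusted P values up to 0.114 when another library was left out.

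The checkpoint kinase genes Bub1 and Bub1b rose by log2 fold changes of 0.49 ± 0.14 and 0.59 ± 0.15 (adjusted P = 0.0357 and 0.0223). Bub1 kept its call only without WT 1, and Bub1b lost it without WT 2, KD 1 or KD 2 (adjusted P between 0.0537 and 0.061). Ttk (Entrez Gene 22137), which starts the checkpoint signal at unattached kinetochores, was at 7.83, 6.05 and 5.79 CPM in WT 1, 2 and 3 and 9.44, 6.71 and 6.79 CPM in KD 1, 2 and 3. WT 1 was above KD 2 and KD 3, and the log2 fold change of 0.22 ± 0.18 did not pass (adjusted P = 0.405, and 0.191 with the block).

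Cenpa (Entrez Gene 12615), the histone H3 variant of centromeres, was the highest of these genes in TPM (26.7). It was at 13.0, 11.6 and 9.47 CPM in WT 1, 2 and 3 and 18.9, 14.6 and 12.5 CPM in KD 1, 2 and 3, with KD 3 below WT 1. The log2 fold change was 0.43 ± 0.17 with an adjusted P of 0.0962, and 0.00309 with the block. Its mean was 11.4 in WT and 15.4 in KD in CPM, but 20.4 and 33.0 in deposited TPM. The size of this change thus depends on the measure. The large kinetochore proteins Cenpe, a motor, and Cenpf had values of 0.40 ± 0.14 and 0.37 ± 0.14 and were called with the block and not without it, and also by DESeq2 and by edgeR without KD 3 (adjusted P = 0.0352 and 0.0317 in the latter).

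In the chromosomal passenger complex, which corrects faulty attachments, 2 of 4 genes rose (12% of all genes tested) and 3 were called with the block (18.6%). The kinase gene Aurkb and Birc5 rose, Cdca8 was called with the block and not without it, and the scaffold gene Incenp was called in neither fit. The median log2 fold change of the group was 0.44, and 0.29 without KD 1. Birc5 (Entrez Gene 11799), which encodes survivin, was at 14.3, 12.2 and 10.2 CPM in WT 1, 2 and 3 and 19.8, 16.2 and 15.6 CPM in KD 1, 2 and 3. All KD libraries were above all WT libraries, and the log2 fold change was 0.49 ± 0.14 with an adjusted P of 0.0367. That call was lost without WT 2 (0.103), WT 3 (0.0838), KD 1 (0.113) or KD 2 (0.076). Aurkb rose by 0.54 ± 0.16 on the log2 scale (adjusted P = 0.0421) and was called only without WT 1 among the fits that leave out 1 library, the others giving adjusted P values of 0.0605 to 0.127.

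Incenp was at 34.8, 30.2 and 32.5 CPM in WT 1, 2 and 3 and 40.5, 32.3 and 30.5 CPM in KD 1, 2 and 3. Only WT 2 was lower than KD 3, and the log2 fold change of 0.083 ± 0.11 was the smallest of the 50 (adjusted P = 0.613). It was -0.049 without KD 1. Cdca8, which encodes borealin, had a log2 fold change of 0.38 ± 0.15 and no overlap between groups (adjusted P = 0.102, and 0.00465 with the block).

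The 8 kinesins are motors that move along or shorten the microtubules of the spindle. Of these Kif11, Kif23 and Kif4 rose (12% of all genes tested) and 7 were called with the block (18.6%). The median log2 fold change was 0.41, and 0.25 without KD 1. Kif11 (Entrez Gene 16551), which pushes the spindle poles apart, was at 32.7, 27.5 and 27.2 CPM in WT 1, 2 and 3 and 50.9, 37.5 and 36.1 CPM in KD 1, 2 and 3. Every KD library was above WT 1, the highest control, and the log2 fold change was 0.51 ± 0.13 with an adjusted P of 0.0256. Without WT 2 the adjusted P was 0.0956, and without WT 3 it was 0.0646. Its log2 fold change without KD 1 was 0.34.

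Kif23 (Entrez Gene 71819), a motor of the central spindle and partner of Racgap1, was at 15.5, 12.6 and 10.9 CPM in WT 1, 2 and 3 and 23.1, 18.2 and 16.0 CPM in KD 1, 2 and 3. KD 3 was only slightly above WT 1, and the log2 fold change was 0.55 ± 0.16 with an adjusted P of 0.0394. The call was lost without WT 2 (0.119), WT 3 (0.0976), KD 1 (0.118) or KD 2 (0.0876). Kif4, a chromosome-bound motor, rose by 0.40 ± 0.11 on the log2 scale (adjusted P = 0.0322), and here WT 3 was the highest control. Its adjusted P was 0.19 without pair 1 and passed only without WT 3 or KD 3 among the fits that leave out 1 library.

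Kif22 (Entrez Gene 110033), the highest kinesin in TPM (17.1), was at 15.4, 12.5 and 12.1 CPM in WT 1, 2 and 3 and 19.1, 14.5 and 16.2 CPM in KD 1, 2 and 3. KD 2 lay below WT 1, and the log2 fold change of 0.32 ± 0.13 had an adjusted P of 0.12 without the block and 0.0129 with it. Kif20b (Entrez Gene 240641), which acts late in cytokinesis, was at 10.1, 8.09 and 6.66 CPM in WT 1, 2 and 3 and 11.1, 7.63 and 8.06 CPM in KD 1, 2 and 3. WT 1 was above KD 2 and KD 3, and the log2 fold change was 0.11 ± 0.19 with an adjusted P of 0.709. Its sign turned without WT 3 (-0.023) and without KD 1 (-0.078). Kif20a, at a log2 fold change of 0.46 ± 0.15, narrowly missed the threshold (adjusted P = 0.0504, and 0.0014 with the block), with no overlap between groups. Kif2c and Kif18b, both regulators of microtubule ends, had values of 0.28 ± 0.16 and 0.41 ± 0.16 and were called with the block and not without it. Kif18b was also called without KD 2 (adjusted P = 0.0459).

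Among 7 spindle-associated proteins Hmmr and Aspm rose (12% of all genes tested) and 6 were called with the block (18.6%). Their median log2 fold change was 0.36, or 0.21 without KD 1. Hmmr (Entrez Gene 15366), a microtubule-binding protein of spindle poles, was at 9.95, 8.15 and 6.29 CPM in WT 1, 2 and 3 and 17.4, 10.9 and 12.2 CPM in KD 1, 2 and 3. The log2 fold change of 0.73 ± 0.21 was the largest of the 50, with no overlap and an adjusted P of 0.0354. It lost the call without WT 2 (0.101), WT 3 (0.0859), KD 1 (0.1) or KD 3 (0.0537). Aspm, a spindle pole protein known from inherited microcephaly, rose by 0.41 ± 0.12 on the log2 scale (adjusted P = 0.0327) and kept its call only without WT 1 or KD 3 among these fits.

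Prc1 (Entrez Gene 233406), which bundles microtubules of the central spindle, was at 40.5, 33.3 and 32.3 CPM in WT 1, 2 and 3 and 59.6, 42.1 and 39.8 CPM in KD 1, 2 and 3. KD 3 was below WT 1, and the log2 fold change of 0.42 ± 0.15 had an adjusted P of 0.0782, 0.000348 with the block, 0.0231 without pair 1 and 0.0494 without KD 3. Tpx2 (Entrez Gene 72119), which activates Aurora A on the spindle, was at 39.5, 39.8 and 31.0 CPM in WT 1, 2 and 3 and 53.9, 43.6 and 41.2 CPM in KD 1, 2 and 3. The KD libraries were all above the WT libraries, by little in KD 3, and the log2 fold change was 0.33 ± 0.12 with an adjusted P of 0.0818, and 0.00234 with the block. Ckap2 (Entrez Gene 80986), a microtubule protein, was at 14.1, 13.0 and 10.3 CPM in WT 1, 2 and 3 and 17.0, 14.3 and 11.6 CPM in KD 1, 2 and 3. Its groups overlapped and neither fit called it (log2 fold change 0.19 ± 0.16, adjusted P = 0.42). Its relative Ckap2l and the microtubule bundler Nusap1 had values of 0.30 ± 0.16 and 0.36 ± 0.14 and were called with the block, and Nusap1 also without pair 1 (adjusted P = 0.0478).

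None of the 3 cytokinesis genes passed the edgeR test (12% of all genes tested rose), and 2 had an unadjusted p under 0.05 (19.0%). DESeq2 called 1 (10.3% of all genes tested) and the block called all 3 (18.6%). Racgap1 (Entrez Gene 26934), the other subunit of centralspindlin, was at 63.2, 59.5 and 55.0 CPM in WT 1, 2 and 3 and 83.9, 67.2 and 66.5 CPM in KD 1, 2 and 3. The groups did not overlap, and the log2 fold change was 0.29 ± 0.10 with an adjusted P of 0.0549, 0.00171 with the block and 0.049 without KD 3. Ect2, the activator of RhoA at the division plane, had a value of 0.43 ± 0.17, and Anln, an actin-binding protein of the furrow, one of 0.37 ± 0.23.

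Further genes of mitosis, 112 in 8 lists that share no member with the 50, were read in the same fit. All 112 were tested, and 27 (24.1%) rose and 1 fell, against 12% and 11.9% of all genes tested. With the block 51 rose, against 18.6% of all genes. Their median log2 fold change was 0.22. Among the 6 G2/M transcription factors 1 rose, Foxm1, which was at 30.8 ± 1.04 in WT and 43.5 ± 5.13 CPM in KD (log2 fold change 0.50 ± 0.086, adjusted P = 0.00484). Mybl2, the largest at 0.50 ± 0.20, did not pass without the block, and the MuvB subunit Lin37 was the smallest at -0.24 ± 0.11. Of 12 regulators of mitotic entry and exit 4 rose (33.3%), the kinase genes Melk (the largest, 0.66 ± 0.19), Pbk and Wee1 and the phosphatase gene Cdc25a, and Gtse1 was the smallest at -0.14.

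Inner kinetochore genes had a median of 0.06, and 2 of 19 rose, Cenpi and Cenpo, a share of 10.5% that is under that of all genes. Cenpl was the largest at 0.65 ± 0.21 without passing, and Cenpw the smallest at -0.21. The outer kinetochore and checkpoint list had a median of 0.28 and 4 of 16 called higher (25.0%), Knl1, Nsl1 (the largest, 0.55 ± 0.17), Zwilch and Kntc1, with Dsn1 the smallest at -0.023. Of 17 APC/C subunits, inhibitors and separase genes 5 rose (29.4%), with a median of 0.09. Cdc23, a core subunit, rose and was at 68.5 ± 2.10 in WT and 108 ± 0.710 CPM in KD (log2 fold change 0.66 ± 0.048, adjusted P = 0.000177), and Cdc27, another, was the smallest at -0.17.

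Among 6 further kinesins 1 rose (16.7%), Kif15 (0.62 ± 0.17), with Kif2a, also found in neurons, the smallest at -0.049. Condensin II and cohesin genes had 7 of 15 called higher (46.7%) and a median of 0.26, among them the cohesin ring genes Smc1a, Smc3 and Rad21 at 0.27 ± 0.067, 0.26 ± 0.057 and 0.25 ± 0.061. Sgo1, the protector of centromeric cohesion, was the largest at 0.50 ± 0.22 without passing, and Pds5b the smallest at 0.075. In the list of spindle assembly and late cytokinesis, 3 of 21 rose (14.3%, near the 12% of all genes), Dlgap5 (the largest, 0.60 ± 0.17), Spag5 and Cep55, and the augmin gene Haus8 fell (log2 fold change -0.25 ± 0.076, adjusted P = 0.0435).

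**Figure D5:**
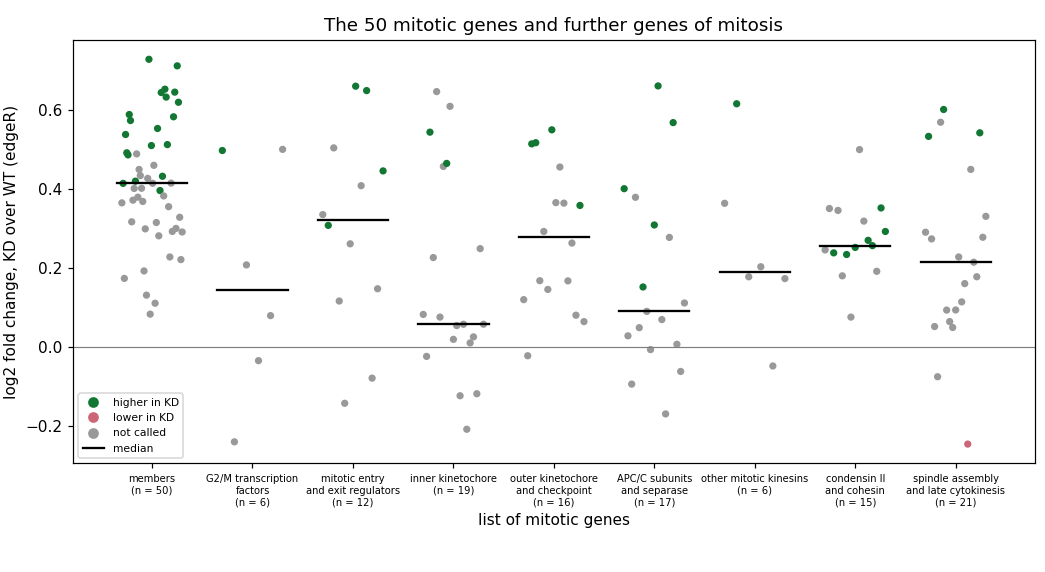
Log2 fold change of KD over WT (y axis, edgeR) for the 50 genes and for 8 lists of further mitotic genes, with 1 point per gene. Green is called higher, red lower and grey not called, and the black lines are medians: 0.41 for the 50 genes and between 0.06 and 0.32 in the other lists.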

How the data were processed

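RNA was measured in 6 libraries (3 WT, 3 KD), grouped and numbered by the sample titles. Control columns are named Ctrl with a number, and each was matched to the WT title that carries this number. The authors purified mRNA and sequenced it on the DNBSEQ platform. The submitters' processing notes name HISAT2 2.2.1, Bowtie2 2.4.5 and RSEM 1.3.1 with GRCm38 (mm10). The authors deposited estimated counts per gene from RSEM, of which 89.3% to 89.9% were whole in a library, and TPM, both used here as deposited. FPKM and group average columns were not used.

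After rounding, KD was compared with WT by the quasi-likelihood F-test of edgeR 4.0.16 (R 4.3.3, TMM, filterByExpr with a minimum count of 10). P values were adjusted over the 13669 genes tested (Benjamini-Hochberg), and the threshold was 0.05. For the SE, the size of the log2 fold change was divided by the root of F. CPM used TMM-scaled library sizes, and the between-library coefficient of variation was 7.69%. The scripts were tested on simulated data.

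Deviations from group means in log2 CPM correlated over genes at 0.35, 0.32 and 0.18 for replicates 1, 2 and 3 and at -0.28 to -0.02 between different numbers. Deviations within a group cancel out for each gene, so negative values between numbers follow by construction from positive same-number ones. The negative values are thus no separate ground for the pairing. Every same-numbered correlation was over 0.1, and on this ground the libraries were paired by the numbers of the titles. The labels do not say that same-numbered libraries share a culture or batch. The pairing is thus inferred from the same values that the block fit uses. Alternatives were the replicate block, other scalings, DESeq2 1.42.0, no filter, limma-trend (limma 3.58.1) on log2(TPM + 1), leaving out each library or pair 1, and an adjusted P under 0.01.

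The 50 genes and the lists were chosen with earlier results of these data known, so no list was tested. Library values are given for Mki67 and Top2a, for the highest genes by mean TPM in each group (1 in groups of 2 to 4, 2 in groups of 5 or more), and for the largest and smallest log2 fold change in groups of 5 or more. Cdc25b and Incenp were added after their values were seen. Genes of further lists are named by the largest and smallest change and by call. Protein sequences were not used here.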

Additional observations from a re-analysis of the deposited data

How the results depend on the processing

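The log2 fold changes of the 50 genes stayed above 0 under every alternative run except for 3 genes, none of them called, when 1 library was left out. Aurka then ranged from -0.0034 (without KD 1) to 0.27, Incenp from -0.049 (without KD 1) to 0.16, and Kif20b from -0.078 (without KD 1) to 0.28, with -0.023 without WT 3. No alternative called any of the 50 lower. The number called higher was 20 without the block (12% of all genes tested) and 42 with it (18.6%). The block uses the pairing inferred from these values. At an adjusted P under 0.01 the number was 4, where 629 of the 13669 genes tested rose. When 1 library was left out it lay between 7 and 23, against 5.65% to 11.7% of all genes tested. The other scalings, DESeq2, no filter, log2(TPM + 1) and leaving out pair 1 gave between 18 and 26, where between 1025 and 2076 genes rose. The median log2 fold change of the 50 lay between 0.24 and 0.51 when 1 library was left out, and 0.24 was without KD 1. Without KD 1 the medians of the groups by role lay between 0.13 and 0.46, and 6 of the 9 groups moved by over 1.5 times. The cytokinesis median did so too without WT 3 (0.24) and without pair 1 (0.23), and the APC/C median without pair 1 (0.19). Over all genes tested, 1646 were higher and 1631 lower. The replicate block gave 2539 and 2470, leaving out pair 1 gave 1025 and 944, and an adjusted P under 0.01 gave 629 and 634. When 1 library was left out, between 779 and 1612 were higher and between 797 and 1583 lower. On log2(TPM + 1) with limma-trend 2076 genes were higher and 1072 lower. The causes were not tested, apart from the fewer libraries or the stricter threshold these alternatives set by construction. Of the 22 genes called with the block and not without it, 9 were called with the block and without pair 1. This alternative was chosen after seeing the data and leaves little to measure the spread between libraries. Alternatives planned for a table without counts did not apply. With 3 libraries a group and SE values near 0.15 on the log2 scale, a change of the size of Cks2 or Incenp was not detectable.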
